A study of Mus musculus with 16 samples.

Results

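The synaptic vesicle release machinery was followed across 46 genes, all of which had a row among the 53801 genes of the count table and all of which were tested in both tissues. The genes were chosen by symbol, with earlier results of these data known. They fall into 13 families, namely 13 synaptotagmins, 2 DOC2 proteins, 3 complexins, 4 SNAREs, 3 NSF and SNAP adaptors, 3 synapsins, 3 SV2 proteins, 2 synaptophysins, 2 synaptogyrins, 3 Munc13 proteins, 4 RIM proteins, 2 ERC proteins, and Bassoon with Piccolo. Rab GTPases were left out. RNA was sequenced from cortex and striatum of C57BL6/J-129sv mice at 10 days of age, in 16 libraries from 9 mice. Controls were Trrap Fl/+ mice with the Camk2-Cre transgene (4 libraries per tissue), and Trrap-FBΔ mice were Trrap Fl/Fl with the same transgene (4 libraries per tissue), so that Cre and at least 1 floxed allele were present in every animal. Trrap is a scaffold of histone acetyltransferase complexes, and the comparison addresses which transcripts differ in forebrain tissue between these genotypes. By the study's methods, Cre is driven by the Camk2a promoter and acts in excitatory forebrain neurons, whereas the libraries were made from whole pieces of tissue with all their cell types.

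Transmitter is released when a synaptic vesicle fuses with the membrane of the nerve terminal. Vesicles are held at the active zone by the scaffold proteins RIM, ERC, Bassoon and Piccolo, and Munc13 proteins prime them by opening syntaxin so that the SNARE proteins syntaxin, SNAP-25 and VAMP can zip together. Complexins clamp and then assist the primed SNAREs, fast synaptotagmins sense calcium and trigger fusion, and NSF with its SNAP adaptors takes the spent SNAREs apart. Synapsins tether the reserve of vesicles, while SV2, synaptophysin and synaptogyrin proteins are carried in the vesicle membrane. Between birth and weaning, the forebrain of rodents forms most of its synapses and these genes are in general rising.

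Of the 46 genes, 24 changed in at least 1 tissue, most of them downwards and none by as much as 2-fold. The share of all genes called in at least 1 tissue, or in neither, was not taken. Those counts of members are thus not read as a result about the release machinery. In cortex, 13 genes (28.3%) were lower in Trrap-FBΔ mice, against 17.6% of the 18268 genes tested, and 3 genes (6.52%) were higher, against 15.7% of all genes. In striatum, 16 genes (34.8%) were lower, against 15.8% of the 18872 genes tested, and 2 genes (4.35%) were higher, against 14.4%. Genes were called as changed at a Benjamini-Hochberg adjusted p under 0.05, taken over all genes tested, in the quasi-likelihood test of the edgeR package. In both tissues 9 genes were lower (19.6%), compared with 10.5% of 17938 genes. No gene of the release machinery was higher in both tissues (background 8.47%), and 22 were called in neither. The median log2 fold change of the 46 genes was -0.07 in cortex and -0.16 in striatum, beside 0.00 and -0.01 for all genes. It was -0.03 in cortex without Trrap-FBΔ mouse 57 and -0.10 in striatum with sex as a covariate, under which 6 genes were lower in both tissues.

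Some families held both directions within a tissue. In cortex the RIM genes held a rise (Rims1) and a fall (Rims3), and the synaptotagmins a rise (Syt12) beside 3 falls (Syt4, Syt5 and Syt11). In striatum the complexins held a rise (Cplx3) beside 2 falls (Cplx1 and Cplx2). Cplx3 was also the only one of the 46 genes called in opposite directions in the 2 tissues, a pattern found in 0.156% of all genes. The promoters of 4 of these genes are shown here because they belong to families whose members moved apart. Each is the 250 bases upstream of the RefSeq start on GRCm38.p6, written 5′ to 3′ on the strand of the gene, with capitals marking a GC box (GGGCGG, or CCGCCC where it lies on the other strand, which cannot overlap each other).
Cplx1, chr5:108550028-108550277, minus strand: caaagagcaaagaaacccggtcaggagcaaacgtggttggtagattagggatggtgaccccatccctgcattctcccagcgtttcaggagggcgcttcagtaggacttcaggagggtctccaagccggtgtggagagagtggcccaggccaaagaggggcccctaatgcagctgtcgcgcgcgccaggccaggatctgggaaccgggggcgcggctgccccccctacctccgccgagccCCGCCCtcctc
Cplx3, chr9:57606282-57606531, minus strand: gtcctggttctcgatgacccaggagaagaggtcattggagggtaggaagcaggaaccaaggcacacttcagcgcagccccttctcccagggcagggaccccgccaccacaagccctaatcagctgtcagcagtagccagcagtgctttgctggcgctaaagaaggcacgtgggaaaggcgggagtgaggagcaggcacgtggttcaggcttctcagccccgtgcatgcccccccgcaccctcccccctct
Rims1, chr1:22806159-22806408, minus strand: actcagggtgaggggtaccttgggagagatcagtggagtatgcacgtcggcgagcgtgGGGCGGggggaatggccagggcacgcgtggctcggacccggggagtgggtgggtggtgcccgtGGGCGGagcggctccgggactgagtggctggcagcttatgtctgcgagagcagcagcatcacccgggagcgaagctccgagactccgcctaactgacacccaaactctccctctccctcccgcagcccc
Rims3, chr4:120854549-120854798, plus strand: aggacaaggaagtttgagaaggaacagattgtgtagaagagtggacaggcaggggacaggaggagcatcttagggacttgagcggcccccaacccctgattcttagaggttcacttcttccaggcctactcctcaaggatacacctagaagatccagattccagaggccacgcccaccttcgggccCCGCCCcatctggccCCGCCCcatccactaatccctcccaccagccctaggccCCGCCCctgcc
The window of Cplx1 held 1 GC box, that of Rims1 held 2 and that of Rims3 held 3, and none was found in the window of Cplx3. Whether the number of GC boxes goes with the direction of change was not tested. RefSeq windows were matched for 32 of the 46 genes, with 41 windows in all, and 26 of the 41 windows (63.4%) held a GC box, compared with 10756 of 32851 windows of all genes (32.7%). Counted by gene, 23 of the 32 genes (71.9%) held one, compared with 9555 of 27025 genes (35.4%). It was found in 5 of 6 matched genes that were lower in both tissues, in 11 of 16 called in neither, and in 2 of 3 that were higher in either tissue. The shares of all genes took in genes that were not tested for expression here, and no share among tested genes was taken. A match describes letters and not binding of a factor.

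The label of the tissue and that of the genotype were checked first. Libraries held 28743866 to 48761429 counts. Trrap counts over the whole gene did not separate the groups: in CPM (counts per 1000000 counted reads, after TMM scaling), they spanned 136.2 to 172.9 in control and 121.2 to 146.2 in Trrap-FBΔ cortex (log2 fold change -0.18, SE 0.075, adjusted p = 0.083 in edgeR), and 139.9 to 151.1 and 135.3 to 147.8 in striatum (-0.04, SE 0.048, adjusted p = 0.52). Counts over the whole gene cannot test the loss of the floxed exons, so they neither show nor deny the deletion, and the groups follow the labels. The 10 markers of striatal projection neurons did not separate the tissues either, with a summed level of 493.5 to 1002 CPM in control cortex and 331.7 to 1387 CPM in control striatum, 1 of 10 higher and 1 of 10 lower in striatum. The dopamine receptor gene Drd1 lay at 18.1 to 40.2 CPM in control cortex and 7.84 to 59.8 CPM in control striatum. Of 8 excitatory markers, 7 were lower in control striatum, whereas Slc17a6, the vesicular glutamate transporter used by subcortical excitatory neurons, was higher (44.2 to 75.9 against 200.7 to 340.0 CPM). Striatum is thus used below as the name on the label. In bulk tissue, fewer cells of a type and less RNA per cell cannot be told apart.

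Some further marker lists moved with the genotype, and their part in the results below was not tested. Of the sums given here, those of excitatory markers in cortex and of mature neuron markers in both tissues overlapped between genotypes. Over all genes tested, 17.6% were lower in cortex and 15.8% in striatum. The excitatory list summed to 1338 to 1940 CPM in control and 951 to 1289 CPM in Trrap-FBΔ striatum, with 5 of 8 markers lower, and in cortex to 3428 to 4189 and 3721 to 3835 CPM, with 2 of 8 lower. Immature neuron markers fell from 3937 to 4721 CPM to 2282 to 2791 CPM in cortex (6 of 9 lower, 1 higher) and from 3388 to 3823 CPM to 2274 to 2544 CPM in striatum (5 of 9 lower). The 8 mature neuron markers, of which Snap25 and Syn1 belong to the release machinery, went from 2880 to 3551 CPM to 2713 to 2897 CPM in cortex (4 lower, median log2 fold change -0.25) and from 2367 to 3324 CPM to 2240 to 2704 CPM in striatum (2 lower, median -0.24). In cortex all 8 oligodendrocyte, 6 microglial and 5 endothelial markers were lower, and in striatum 3, 5 and 1 of them. The endothelial share in striatum (20%) was near that of all genes. Each list was detected in every library, with no marker under 1 CPM throughout. Mice were not balanced by sex, with 2 females in control cortex, 1 in control striatum and 3 in each Trrap-FBΔ group.

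**Figure D1:**
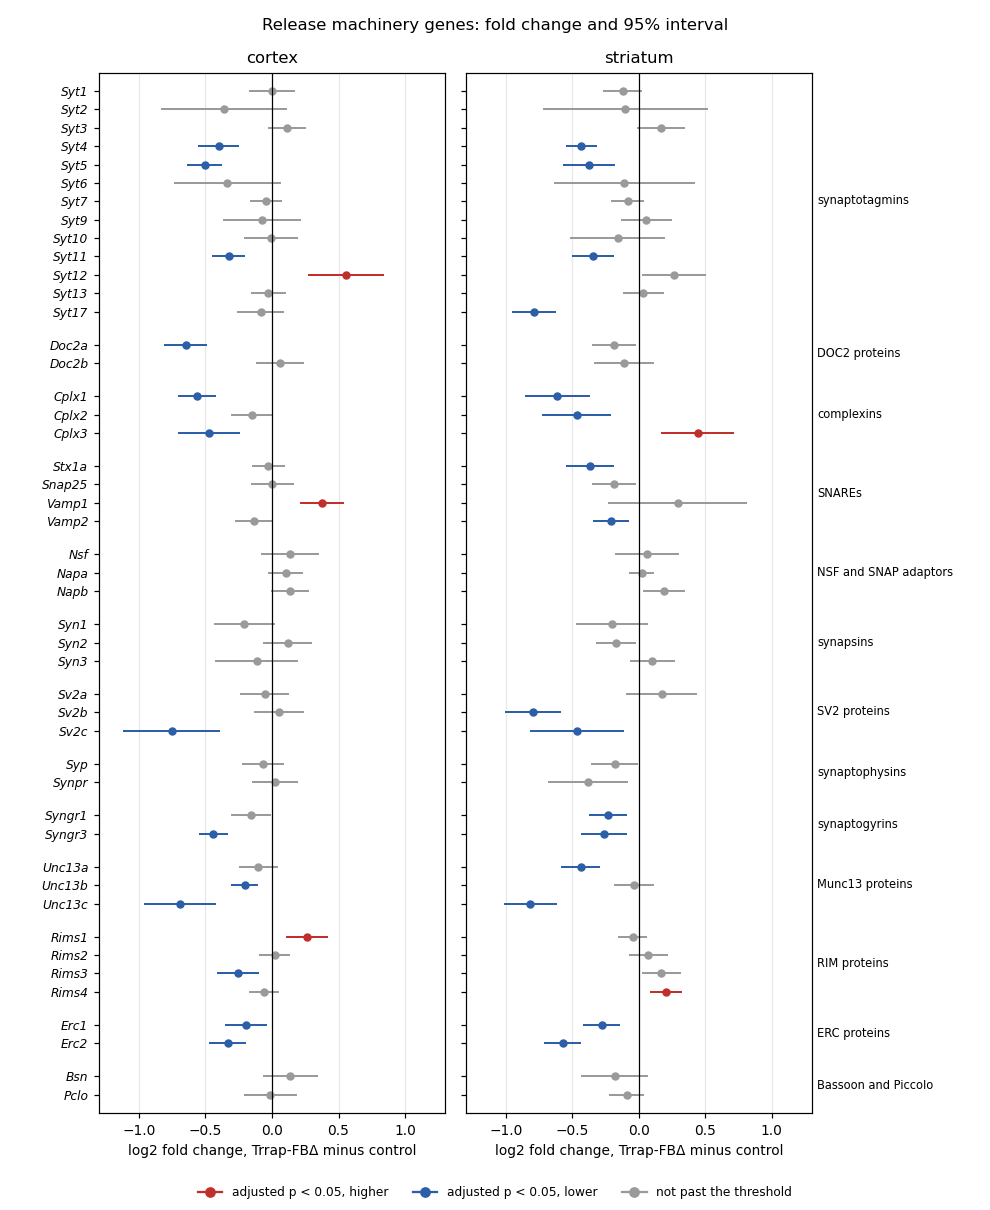
Log2 fold change, Trrap-FBΔ minus control, of the 46 release machinery genes in cortex (left) and striatum (right), with 4 libraries per group. Points are edgeR estimates and bars 95% intervals, coloured by whether the adjusted p was under 0.05; 13 genes in cortex and 16 in striatum lie lower past the threshold, and 3 and 2 lie higher.

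Among the complexins, which bind the assembled SNARE complex, Cplx1 fell in both tissues. Cplx1 (ENSMUSG00000033615, chr5:108518554-108550024) measured 374, 434, 444 and 449 CPM in control cortex (mice 55, 58, 63 and 64) and 281, 301, 274 and 295 CPM in Trrap-FBΔ cortex (mice 57, 59, 60 and 61). Control striatum held 392, 289, 331 and 357 CPM (mice 58, 63, 64 and 65) and Trrap-FBΔ striatum 218, 231, 189 and 256 CPM (mice 57, 59, 60 and 61). The mutant libraries all lay below the controls of their tissue. Its log2 fold change was -0.56 in cortex (SE 0.063, edgeR adjusted p = 0.0001) and -0.61 in striatum (SE 0.11, adjusted p = 0.0024).

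Cplx2, the other complexin that is abundant in forebrain, fell in striatum, from 591, 723, 847 and 619.6 CPM to 567, 476, 508 and 462 CPM, again without overlap (log2 fold change -0.47, SE 0.114, adjusted p = 0.012 in edgeR). In cortex it stood at 1074, 1133, 1267 and 1208 CPM in controls and 1048, 1017, 1043 and 1107 CPM in mutants. There the groups overlapped and the change of -0.15 (SE 0.067) had an adjusted p of 0.099 in edgeR, with a 95% interval of -0.30 to -0.01. Cplx3, best known from retinal ribbon synapses and deep cortical neurons, is the least abundant of the 3. Cplx3 (ENSMUSG00000039714, chr9:57599992-57606281) held 24.8, 24.5, 33.7 and 25.6 CPM in control cortex and 21.7, 19.1, 19.2 and 18.4 CPM in mutants. In striatum the order of the groups was turned round, with 7.21, 7.95, 7.18 and 5.77 CPM in controls and 9.34, 10.97, 9.90 and 8.01 CPM in mutants, again with no overlap. The log2 fold change was -0.47 in cortex (SE 0.102, edgeR adjusted p = 0.0047) and 0.44 in striatum (SE 0.12, edgeR adjusted p = 0.019). The rise in striatum was no longer called with sex as a covariate (edgeR adjusted p = 0.066) or without Trrap-FBΔ mouse 59 (edgeR adjusted p = 0.057).

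RIM proteins recruit vesicles and calcium channels to the release site. Rims1 (ENSMUSG00000041670, chr1:22286251-22805994), which encodes the full-length RIM1 scaffold, held 225, 252, 273 and 263 CPM in control cortex and 329, 305, 306 and 279 CPM in Trrap-FBΔ cortex. Each mutant lay above each control, a log2 fold change of 0.26 (SE 0.068, adjusted p = 0.012 in edgeR). In striatum the values of 181, 169.8, 171 and 172 CPM and of 170.1, 169, 175 and 158 CPM overlapped (-0.05, SE 0.047, edgeR adjusted p = 0.48, 95% interval -0.15 to 0.06).

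Rims3 (ENSMUSG00000032890, chr4:120854816-120896579) and Rims4 encode short RIM proteins that hold little more than the final C2 domain. In cortex Rims3 stood at 92.7, 86.5, 81.4 and 81.2 CPM in controls and 67.3, 69.5, 67.8 and 82.0 CPM in mutants. Mice 57, 59 and 60 were below all controls, and mouse 61 lay within their range (log2 fold change -0.25, SE 0.069, edgeR adjusted p = 0.015). The call was lost without Trrap-FBΔ mouse 59 (edgeR adjusted p = 0.051) or 60 (0.059). In striatum Rims3 was at 145, 129, 142 and 157 CPM in controls and 152, 167, 157 and 168 CPM in mutants, which overlapped (0.17, SE 0.062, edgeR adjusted p = 0.064). Rims4 rose in striatum, from 120.4, 108, 126 and 115 CPM to 134, 132, 134 and 138 CPM (0.20, SE 0.051, edgeR adjusted p = 0.014), with every mutant above every control. In cortex it lay at 193 to 209 CPM in controls and 179.7 to 199.5 CPM in mutants (-0.06, SE 0.049, edgeR adjusted p = 0.37). Rims2, the second full-length family member, had an adjusted p over 0.05 in both tissues (log2 fold changes 0.02 and 0.07).

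Of the synaptotagmins, Syt1, the main calcium sensor for fast release, did not pass the threshold in either tissue. It held 1522 to 1807 CPM in control and 1568 to 1825 CPM in Trrap-FBΔ cortex (log2 fold change 0.00, 95% interval -0.16 to 0.16) and 1027 to 1092 and 912 to 1049.6 CPM in striatum (-0.12, 95% interval -0.26 to 0.02). Syt4, Syt5 and Syt11 fell in both tissues. Syt4, a family member that binds little calcium and sits on dense-core and Golgi vesicles, held 319.6, 254, 273 and 282 CPM in control cortex and 225, 205, 213 and 211 CPM in mutants. In striatum its values were 208, 196, 201 and 199 CPM in controls and 138, 153, 158 and 148 CPM in mutants, and no group overlapped its control. The log2 fold change of Syt4 was -0.40 in cortex (SE 0.068, edgeR adjusted p = 0.0011) and -0.43 in striatum (SE 0.051, edgeR adjusted p = 0.00038).

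Syt5 (chr7:4539765-4547541), a calcium sensor of dense-core vesicles, fell from 131, 146, 149.6 and 154 CPM to 102, 97.5, 99.3 and 110.5 CPM in cortex. In striatum it fell from 86.9, 101, 108 and 85.7 CPM to 79.5, 67.9, 78.7 and 68.0 CPM. The groups were apart in both tissues, with log2 fold changes of -0.51 (SE 0.058, edgeR adjusted p = 0.00011) and -0.37 (SE 0.086, edgeR adjusted p = 0.0092). Syt11 (chr3:88744700-88775164), which does not bind calcium and restrains vesicle endocytosis, held 663, 709, 723 and 722 CPM in control cortex and 541, 572, 559 and 579 CPM in mutants. In striatum it held 723, 597, 670.0 and 696 CPM in controls and 526, 524, 508 and 559 CPM in mutants. Its groups were likewise apart, with log2 fold changes of -0.32 (SE 0.053, edgeR adjusted p = 0.00098) and -0.34 (SE 0.068, edgeR adjusted p = 0.0045).

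Syt12, a synaptotagmin of synaptic vesicles that lacks calcium binding, moved the other way in cortex. It rose from 13.6, 20.9, 23.7 and 20.3 CPM to 28.6, 30.7, 27.3 and 29.5 CPM (log2 fold change 0.56, SE 0.128, edgeR adjusted p = 0.0064), with all mutants above all controls. In striatum the values of 20.5, 16.1, 22.2 and 21.8 CPM and of 26.7, 24.2, 21.2 and 24.7 CPM overlapped (0.26, SE 0.105, edgeR adjusted p = 0.083). Syt17 (chr7:118380717-118448222), an atypical member without a membrane anchor of its own, fell in striatum from 55.7, 50.2, 54.6 and 50.6 CPM to 31.6, 26.4, 31.8 and 32.3 CPM. The mutant libraries were far below the controls (-0.79, SE 0.072, edgeR adjusted p = 0.00012). In cortex its levels of 36.4 to 45.9 CPM in controls and 35.2 to 43.1 CPM in mutants overlapped (-0.08, SE 0.078, edgeR adjusted p = 0.43). The remaining 7 members (Syt2, Syt3, Syt6, Syt7, Syt9, Syt10 and Syt13) were called in neither tissue. The cortex value of Syt2, a fast calcium sensor, rested on control mouse 55, at 22.8 CPM beside 51.1 to 56.4 CPM in the other controls and 31.2 to 41.0 CPM in mutants. Without that library Syt2 was lower (-0.58, SE 0.086, edgeR adjusted p = 0.00088).

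Doc2a encodes a high-affinity calcium sensor linked to spontaneous and asynchronous release. It fell in cortex from 61.9, 54.3, 55.3 and 64.3 CPM to 37.4, 34.8, 36.5 and 41.6 CPM, with no overlap (log2 fold change -0.65, SE 0.072, edgeR adjusted p = 9.2e-05). In striatum 33.5 to 41.3 CPM stood beside 31.6 to 35.9 CPM (-0.18, SE 0.071, edgeR adjusted p = 0.074). Its paralog Doc2b was called in neither tissue.

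All 3 Munc13 genes changed in at least 1 tissue, each downwards. Unc13c (ENSMUSG00000062151, chr9:73479422-73968966), which encodes Munc13-3, showed the largest fall in both tissues on the mean of both changes among the genes that fell in both without overlap. It held 107, 85.6, 90.5 and 64.7 CPM in control and 58.7, 50.8, 54.0 and 51.3 CPM in Trrap-FBΔ cortex. In striatum it held 168, 177, 154 and 199 CPM in controls and 89.9, 105, 93.2 and 109 CPM in mutants. Mutants were below controls throughout, with log2 fold changes of -0.69 (SE 0.12, edgeR adjusted p = 0.0013) and -0.82 (SE 0.086, edgeR adjusted p = 0.00022). Unc13a, the main priming factor of excitatory forebrain synapses, fell in striatum alone on the threshold, from 340.2 to 370.3 CPM to 239 to 286 CPM (-0.44, SE 0.063, edgeR adjusted p = 0.00093). Unc13b fell in cortex, from 111 to 119 CPM to 95.3 to 105 CPM (-0.21, SE 0.044, edgeR adjusted p = 0.0044).

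Both ERC genes, whose products bind RIM at the active zone, fell in both tissues. Erc2 (ENSMUSG00000040640, chr14:27622428-28478537) went from 380.4, 319, 365 and 365 CPM to 274, 293, 283 and 285 CPM in cortex. In striatum it went from 216, 244, 244 and 215 CPM to 148, 155, 165 and 152 CPM. No libraries of the groups overlapped, and the log2 fold changes were -0.33 (SE 0.06, edgeR adjusted p = 0.0016) and -0.57 (SE 0.06, edgeR adjusted p = 0.00022). Erc1 changed by -0.20 in cortex, close to the threshold (edgeR adjusted p = 0.047) and lost under most alternatives, and by -0.28 in striatum (edgeR adjusted p = 0.0068). The large scaffolds Bassoon (Bsn) and Piccolo (Pclo) were called in neither tissue, and only Bsn shared exon bases with another gene on its strand (0.36%). Without control mouse 63, Bsn (-0.28) and Pclo (-0.13) were lower in striatum (edgeR adjusted p = 0.025 and 0.042). Without Trrap-FBΔ mouse 57, Bsn was higher in cortex (0.23, edgeR adjusted p = 0.016).

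Among the SNAREs, Snap25, the plasma membrane partner, stood at 895 to 1112 CPM in control and 1000.2 to 1049 CPM in Trrap-FBΔ cortex (log2 fold change 0.00, 95% interval -0.15 to 0.16). In striatum its mutants lay below all controls, at 688 to 722 CPM beside 732 to 881 CPM, with a change of -0.18 (95% interval -0.34 to -0.03, edgeR adjusted p = 0.071). Stx1a, the syntaxin of the plasma membrane, held 326 to 345 and 313 to 357 CPM in cortex. It fell in striatum from 145, 139, 143 and 115 CPM to 110.4, 96.0, 111 and 103 CPM, with no overlap (-0.36, SE 0.078, edgeR adjusted p = 0.0067). Vamp2, the main vesicle SNARE of forebrain, was lower in striatum by -0.21 (SE 0.058, edgeR adjusted p = 0.022), with 874 to 992 CPM in controls and 793 to 835 CPM in mutants. This call was lost with sex as a covariate (-0.17, edgeR adjusted p = 0.073) and without control mouse 64 or Trrap-FBΔ mouse 59, 60 or 61 (edgeR adjusted p = 0.051 to 0.064). In cortex its groups did not overlap either, at 1225 to 1374 and 1110.4 to 1204 CPM, but the change of -0.14 had an adjusted p of 0.12 in edgeR. Vamp1, its paralog of the brainstem and spinal cord, rose in cortex from 47.8, 56.2, 46.6 and 51.2 CPM to 61.02, 74.3, 62.2 and 64.9 CPM (0.38, SE 0.073, edgeR adjusted p = 0.0025). With all 16 libraries in one fit that rise had an adjusted p of 0.15 in edgeR. The 2 vesicle SNAREs thus stood on opposite sides of their controls in cortex, of which only Vamp1 passed the threshold.

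Vesicle membrane proteins fell in part. Sv2b (ENSMUSG00000053025, chr7:75114894-75309262), an SV2 transporter-like protein of excitatory terminals, held 246, 269, 229 and 205 CPM in control striatum and 138, 127, 155 and 126 CPM in mutants. All mutants lay well below the controls (log2 fold change -0.80, SE 0.091, edgeR adjusted p = 0.00033). In cortex 353, 381, 453 and 447 CPM stood beside 419, 460.3, 424 and 398 CPM (0.06, SE 0.082, edgeR adjusted p = 0.63). Sv2c, the member found chiefly in basal ganglia, fell in cortex from 63.2 to 89.6 CPM to 28.1 to 52.1 CPM (-0.75, SE 0.164, edgeR adjusted p = 0.0048). In striatum its groups overlapped, and the fall (-0.47, SE 0.155, edgeR adjusted p = 0.045) was called in 7 of 17 alternatives and in 2 of 8 fits without 1 library. With sex as a covariate its edgeR adjusted p was 0.26, with all 16 libraries in one fit 0.055, and with limma-voom the adjusted p was 0.062. The libraries whose absence ended the call were those of control mice 58, 64 and 65 and Trrap-FBΔ mice 57, 59 and 60 (edgeR adjusted p = 0.084 to 0.11). Sv2a, present at most synapses, was called in neither tissue.

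Syngr3 fell from 217, 221, 203 and 223 CPM to 156, 157, 156 and 169 CPM in cortex (log2 fold change -0.44, SE 0.046, edgeR adjusted p = 6.9e-05) and passed the threshold in striatum, where groups overlapped (-0.26, SE 0.074, edgeR adjusted p = 0.023). The call in striatum was lost with sex as a covariate (edgeR adjusted p = 0.11) and without control mouse 58 or 65 or Trrap-FBΔ mouse 57, 59 or 60 (edgeR adjusted p = 0.053 to 0.071). Syngr1 fell in striatum (-0.23, SE 0.062, edgeR adjusted p = 0.018), which was lost with sex as a covariate (-0.15, edgeR adjusted p = 0.075) and without Trrap-FBΔ mouse 59 (edgeR adjusted p = 0.054). Synaptophysin (Syp) and Synpr, the 3 synapsins, and Nsf with both SNAP adaptor genes gave no call in either tissue, although Napb (0.19, edgeR adjusted p = 0.054) and Synpr (-0.38) in striatum lay at the threshold and were called in 7 and 4 of 17 alternatives. Without control mouse 63, Syp (-0.24), Syn1 (-0.32) and Syn2 (-0.21) were lower in striatum (edgeR adjusted p = 0.0058, 0.0069 and 0.019). DESeq2 also called Syp and Syn2 lower there (adjusted p = 0.046 and 0.039). Groups did not overlap in 13 of the 46 genes with lower and 3 with higher mutant levels in cortex (background 16.7% and 16% of all genes), and in 15 and 3 in striatum (background 16% and 15.6%).

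**Figure D2:**
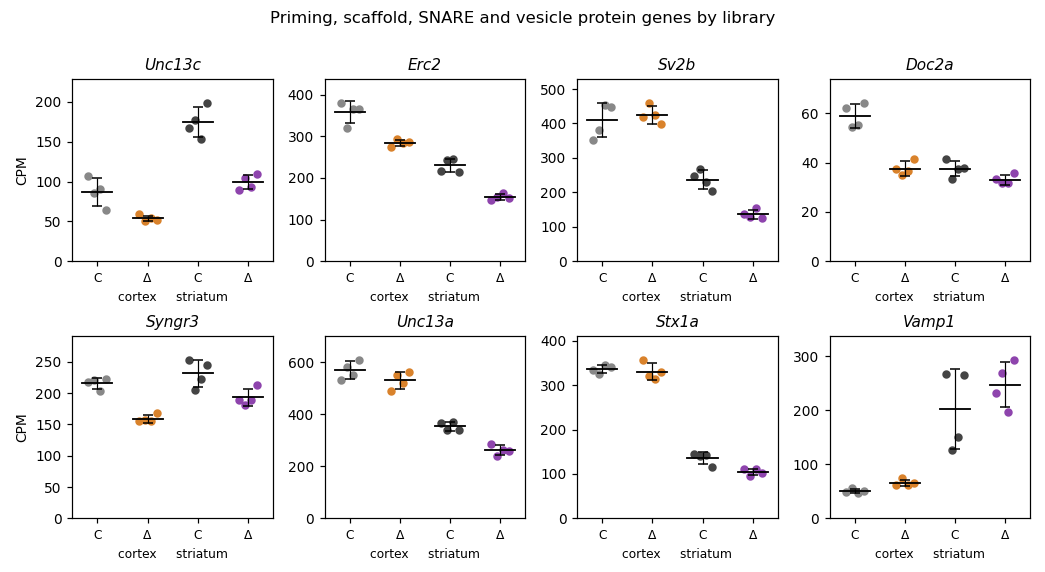
CPM of Unc13c, Erc2, Sv2b, Doc2a, Syngr3, Unc13a, Stx1a and Vamp1 in each of the 16 libraries. C is control and Δ is Trrap-FBΔ, points are libraries, long lines are means and error bars the SD (n = 4); Unc13c and Erc2 are lower in both tissues, Sv2b, Unc13a and Stx1a lower in striatum and Doc2a in cortex, and control Vamp1 in striatum ranges from 126 to 267 CPM.

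To ask whether a gene changed differently in cortex and striatum, the interaction of genotype and tissue was fitted in all 16 libraries. The fit held no term for the mouse, although 7 mice gave both tissues. The interaction passed for 3 of the 46 genes (6.52%), compared with 0.437% of the 19438 genes tested. An unadjusted edgeR p under 0.05 was found for 14 of the 46 (30.4%), compared with 12.1% of all genes. Sv2b fell in striatum and was not called in cortex, a difference in log2 fold change of -0.85 (SE 0.13, edgeR adjusted p = 0.011). Syt17 likewise fell in striatum and was not called in cortex, with a difference of -0.70 (SE 0.112, edgeR adjusted p = 0.012). Cplx3, lower in cortex and higher in striatum, differed by 0.91 (SE 0.165, edgeR adjusted p = 0.023). The call for Cplx3 was lost without Trrap-FBΔ mouse 59 in either tissue or without mouse 60 in cortex (edgeR adjusted p = 0.056 to 0.06). With the mouse as a replicate block, 7 of the 46 genes passed, 3 with a higher and 4 with a lower change in striatum, among them Doc2a (0.45, edgeR adjusted p = 0.046) and Rims3 (0.43, edgeR adjusted p = 0.032). The excitatory marker Slc17a7, another gene of glutamatergic vesicles, fell in Trrap-FBΔ striatum beside Sv2b (-0.88, SE 0.21, edgeR adjusted p = 0.011) and stood at 0.11 in cortex (adjusted p = 0.37); the part of excitatory neuron content in the change of Sv2b was not tested.

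**Figure D3:**
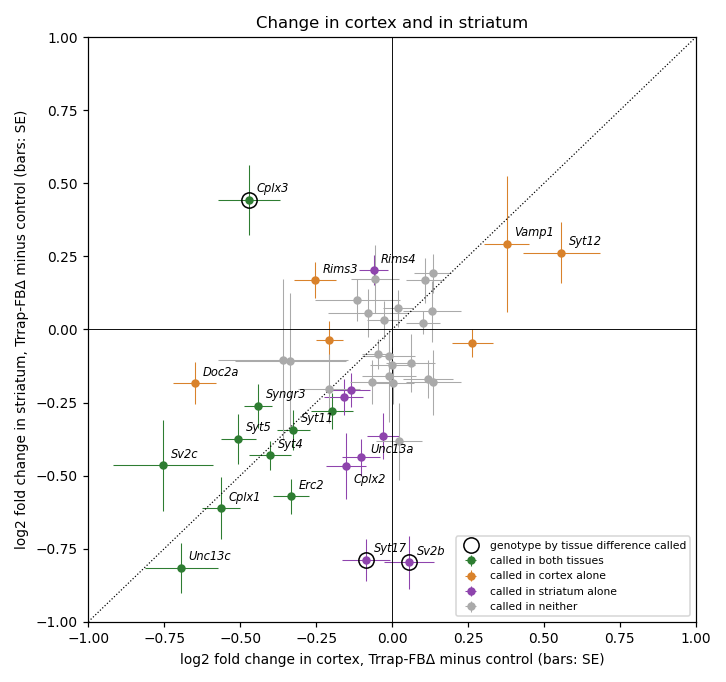
Log2 fold change, Trrap-FBΔ minus control, in cortex (horizontal axis) and striatum (vertical axis) for the 46 release machinery genes, with SE bars and a dotted line of equal change. Colours mark the tissues in which a gene was called and rings the 3 genes with a called difference between tissues; Cplx3 lies alone at the upper left among genes called in both tissues.

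The level of each gene in controls gives the setting of these changes. Per kb of exon, Vamp2 led in control cortex with 338 CPM per kb, followed by Syp with 273, Cplx2 with 238 and Syt1 with 203. In control striatum Vamp2 (246 CPM per kb) and Syp (230.3) led again, followed by Cplx1 (156) and Cplx2 (141). The lowest was Syn3, a minor synapsin, with 1.47 and 1.32 CPM per kb. In cortex every library of Vamp2 lay above every library of Syp, whereas the ranges of Syp and Cplx2 overlapped. In striatum the ranges of Vamp2 and Syp overlapped, as did those of Cplx1 and Cplx2.

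Between control tissues, 23 of the 46 genes (50%) were lower in striatum, against 20.1% of 18284 genes, and 8 (17.4%) were higher, against 20.3%. Scaling by the upper quartile moved the split of all genes to 4451 higher of 7425 called, from 3710 higher and 3670 lower. Among genes lower in striatum, the largest difference was that of Cplx3, from 27.2 ± 4.36 CPM in cortex to 7.03 ± 0.912 CPM in striatum (SD, n = 4; log2 difference -1.95, SE 0.127, edgeR adjusted p = 4.4e-06). Second among these was Stx1a, with 336 ± 8.32 CPM in cortex and 135 ± 13.9 CPM in striatum (SD, n = 4; -1.31, edgeR adjusted p = 3.5e-06), and Unc13b (-0.80) and Sv2b (-0.78) were lower as well. Higher in striatum were Vamp1 (2.01, SE 0.229, edgeR adjusted p = 8.2e-05), Syt9 (1.36, SE 0.137, edgeR adjusted p = 3.8e-05), Syt2 (1.03, SE 0.322, edgeR adjusted p = 0.027) and Unc13c (1.01, SE 0.136, edgeR adjusted p = 0.00023). Vamp1 held 46.6 to 56.2 CPM in control cortex, and 267, 126, 151 and 265 CPM in the control striata of mice 58, 63, 64 and 65. Syt2 took the same order there, with 128, 50.6, 73.5 and 120.0 CPM, as did the summed oligodendrocyte markers, with 8381, 3025, 4066 and 6213 CPM. The part of dissection or cell content in these values was not tested, and the difference of Syt2 was not called with the mouse as a replicate block (0.56, edgeR adjusted p = 0.097).

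**Figure D4:**
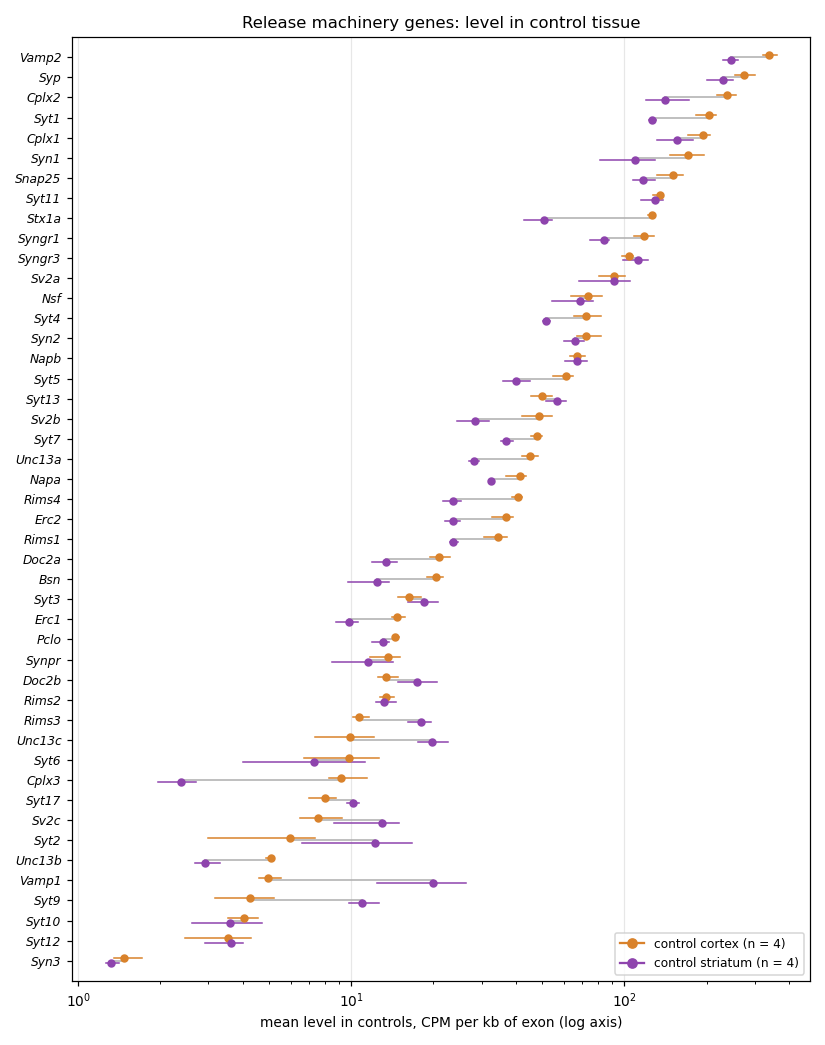
Mean level of the 46 genes in control cortex and control striatum, in CPM per kb of exon on a log axis, with lines over the range of 4 libraries. Genes are ordered by their level in cortex; Vamp2 and Syp lead in both tissues, and Vamp1 and Cplx3 lie farthest apart between tissues.

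Other genes of the vesicle cycle are read against the shares of all genes given above (15.7% higher and 17.6% lower in cortex, 14.4% and 15.8% in striatum). Of 30 further fusion and priming partners, 5 were higher and 6 lower in cortex and 3 higher and 10 lower in striatum, with medians of 0.01 and -0.06. The cortex shares of 16.7% and 20% were near those of all genes, whereas 33.3% were lower in striatum. Lin7b, a scaffold adaptor, fell in both tissues (log2 fold changes -0.44 and -0.94), as did the liprin genes Ppfia4 (-0.56 and -0.41) and Ppfia2 (-0.25 and -0.44), which build active zones. Snapin, a SNAP-25 binding protein, rose in both (0.42 and 0.33).

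Among 26 endocytosis genes, which retrieve vesicle membrane, 4 were higher and 10 lower in cortex and 1 higher and 7 lower in striatum. The share higher in cortex (15.4%) was near that of all genes, and 38.5% were lower in cortex and 26.9% in striatum. The adaptor subunit Ap2m1 (-0.26 and -0.27), the scaffold Itsn2 (-0.19 and -0.33) and Eps15 (-0.23 and -0.28) fell in both tissues, and the clathrin adaptor Ston2 rose in both (0.35 and 0.18). Of 15 genes of the proton pump that energises transmitter uptake, 4 were higher and 1 lower in cortex, and 1 was higher and 1 lower in striatum, so that 26.7% were higher in cortex and 6.67% were called in each other direction. The subunit Atp6v1c1 rose (0.36 and 0.26) and the accessory subunit Atp6ap1 fell (-0.20 and -0.28) in both. Of 8 transmitter transporters, Slc17a6 (-0.62) and Slc17a8 (-0.46) fell in cortex, whereas Slc17a7 (-0.88) and the vesicular zinc transporter Slc30a3 (-0.66) fell in striatum, which is 25% of the list in each tissue.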

How the data were processed

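Libraries of polyadenylated RNA kept the strand. Single-end reads were aligned by the authors to GRCm38 with STAR 2.5.4b, and reads mapping to a unique place were assigned to Ensembl genes by strand with featureCounts 1.5.0. Raw counts were deposited, without scaling or filtering. Symbols, coordinates and exon lengths came from the annotation of the same build, and 53620 of 53801 identifiers had a symbol.

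Counts were filtered with filterByExpr, scaled by TMM and compared by edgeR 4.0.16 (quasi-likelihood F-test, R 4.3.3) in the 8 libraries of each tissue, in the 8 control libraries between tissues, and with an interaction of genotype and tissue over all 16. These fits held no term for the mouse. P-values were adjusted by Benjamini-Hochberg over all genes tested, with a threshold of 0.05. CPM were scaled by TMM over all 16 libraries, and exon length was the union of a gene's exons. These comparisons and the interaction, each under its main design, were tested on simulated counts with edgeR, DESeq2 and limma-voom.

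The members, families and lists were chosen with earlier results of these data known. Named library by library were the members lower in both tissues with no overlap (up to 6), called members of families with both directions in a tissue, the 3 smallest interaction p-values, the highest levels per kb and the largest differences between tissues. Doc2a, Unc13a, Syngr3, Syngr1, Sv2c, Snap25, Napb, Synpr, Erc1, Bsn, Pclo, Syp, Syn1 and Syn2 were chosen for values after these were seen.

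Alternatives were other scalings (RLE and upper quartile), no filter or at least 10 counts in every library, DESeq2 1.42.0, limma-voom (limma 3.58.1), sex as a covariate, all 16 libraries in one fit, a test against a fold change of 1.2, the mouse as a replicate block, and each library left out. Same-numbered libraries of cortex and striatum came from the same animal. Their deviations from group means over 18742 autosomal genes correlated with r of 0.0246 to 0.303 in 7 pairs (median 0.271), and -0.293 to 0.166 in 25 pairs of different mice (median -0.0391). No libraries were duplicates (chi-square per degree of freedom 8.26 to 44.6 in 24 pairs). Each library is 1 mouse per tissue.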

Additional observations from a re-analysis of the deposited data

Results flagged for a closer look

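In 184 groups of 4 libraries (46 genes in 4 groups), the gap of the highest or lowest library to the next exceeded Dixon's 95% critical value for its share of the range in 7, and chance gives about 1 in 20 groups. Among controls, mouse 55 lay low in cortex for Syt2 (22.8 CPM, others 51.1 to 56.4 CPM) and Napa (139 CPM, others 162 to 165 CPM). Mouse 63 lay high in cortex for Cplx3 (33.7 CPM, others 24.5 to 25.6 CPM) and low in striatum for Syngr1 (360.4 CPM, others 417 to 423 CPM). Among Trrap-FBΔ mice, mouse 61 lay high in cortex for Syngr3 (169 CPM, others 156 to 157 CPM) and Rims3 (82.0 CPM, others 67.3 to 69.5 CPM), and mouse 59 low in striatum for Syt17 (26.4 CPM, others 31.6 to 32.3 CPM).

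The change with genotype differed between the tissues by the interaction term in edgeR for Sv2b (-0.85), Syt17 (-0.70) and Cplx3 (0.91), each given as the log2 fold change in striatum minus that in cortex. Mouse 59 in striatum carries the lowest value of Syt17 and the highest of Cplx3 in its group, and without it the adjusted p of the Cplx3 difference was 0.06 in edgeR.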

How the results depend on the processing

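None of the 46 members changed direction past the threshold under any alternative run. Against a fold change of 1.2, 1381 genes were called in cortex and 1364 in striatum, with 0 members higher and 6 lower in cortex, 0 higher and 7 lower in striatum, and 2 lower in both. Members higher in striatum numbered 4 with upper-quartile scaling, 4 with DESeq2 and 1 with sex as a covariate, which also left Sv2c, Syngr3 and Erc1 out of the members lower in both tissues. For the difference between tissues, 195 genes were called with no filter, 219 under the replicate block of mouse and 429 with DESeq2, beside 85 in the fit reported. Members with a higher change in striatum numbered 2 with upper-quartile scaling, 3 with no filter, 4 with DESeq2 and 3 with the replicate block, and those with a lower change 5 with DESeq2 and 4 with the replicate block, which changed no other call than those given above and that of Erc2 and Stx1a (adjusted p = 0.049 and 0.038 in edgeR). With 1 library left out at a time, cortex gave 4734 to 5726 genes, 3 to 5 members higher and 11 to 16 lower. Striatum gave 4205 to 5769 genes, 1 to 4 members higher and 12 to 23 lower, and 7 to 10 members were lower in both tissues, of which 7 to 9 belonged to the 9 of the fit reported. The 5769 genes and the 23 lower members came from the striatum fit without control mouse 63. That fit added Bsn, Doc2a, Pclo, Snap25, Syn1, Syn2 and Syp to the members lower in striatum. The difference between tissues gave 18 to 151 genes, 0 to 3 members higher and 2 to 3 lower, and that between control tissues 6044 to 7591 genes, 7 to 11 members higher and 21 to 23 lower. Both directions held within the synaptotagmins of cortex in 16 of 17 alternatives, within the RIM genes of cortex in 14 of 17 and within the complexins of striatum in 14 of 17. The cause of these shifts was not tested. Each group held 4 libraries, and the parts of depth and of the number of mice in the precision were not tested.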
